A study of Mus musculus with 24 samples.

Results

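Astrocytes are the glial cells that clear glutamate and potassium from around synapses, convert glutamate to glutamine, supply neighbouring cells with lipoprotein cholesterol and lactate, and cover blood vessels with their endfeet. In the first days after birth they still divide, and they carry a Notch program that came with them from radial glia, in which ligands on neighbouring cells activate Notch receptors and these switch on the Hes and Hey repressors. Primary culture is the usual way to study them, and the comparison described here asks how far the RNA of neonatal astrocytes in a dish departed from that of the same kind of cell taken directly from the brain.

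The data were 8 of the 24 libraries of a poly(A) RNA sequencing study of mouse astrocytes and were chosen by their labels, 4 of cultured neonatal astrocytes (neoAC CellC) and 4 of neonatal astrocytes that were directly isolated (neoAC direct). All genes were compared except those on chromosomes X and Y, which left 45231 of the 49671 counted genes and 18941 of the 19691 tested genes. Among the tested genes left out, 698 lay on X or Y and 52 had no placed position. Both groups came from wild-type C57BL/6J mice aged 4 to 8 days. Cerebral tissue without meninges was pooled from 2 brains for each isolation, dissociated with a neural tissue kit and enriched with magnetic beads against ACSA-2, a surface antigen carried by the sodium pump subunit Atp1b2. Directly isolated cells were pelleted and snap-frozen, and cultured cells spent 7 to 10 days in AstroMACS medium with glutamine on a coating of poly-L-lysine and laminin. Astrocytes of mice aged 100 to 140 days, cultured (AdAC CellC) or directly isolated (AdAC direct) in 4 libraries each, served as the comparison for age. They were dissociated with an adult brain kit that includes removal of debris and red blood cells. Removal of meninges is described for the neonatal tissue only, and removal of olfactory bulb and cerebellum for direct isolation of adult cells. Age, dissection and the dissociation procedure thus cannot be told apart in that comparison. The labels tie no single age in days, day of culture or sequencing batch to a library.

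Levels are given as CPM, counts scaled to a common library total, with edgeR's TMM factors between libraries. Changes are log2 ratios of cultured over directly isolated cells with their standard error (SE), and a gene was said to have risen or fallen where the adjusted p of edgeR's quasi-likelihood test was below 0.05. Where values are given as a pair or as a pair of sets of 4, those of directly isolated cells come first, and sets are in the order of the replicate numbers. Every value after a ± sign beside a CPM is the SD over 4 libraries. Since CPM is not divided by transcript length, levels are compared between libraries and not between genes.

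The label of both groups was checked against 56 astrocyte genes, all of which were detected. Their summed level was 81005 to 89615 CPM in the 4 directly isolated libraries and 28322 to 31566 CPM in the 4 cultured ones. Atp1b2, which carries the antigen used for sorting, was at 1859 ± 127 CPM in directly isolated cells and at 1243 ± 129 CPM in cultured cells. Gfap, Aqp4, Slc1a3 and Aldh1l1 were likewise present in every library, so both groups held astrocyte RNA, in different amounts. In bulk samples such as these, fewer cells of a type and less RNA per cell cannot be told apart.

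Culture was accompanied by higher RNA of 6557 genes (34.6% of 18941) and lower RNA of 5914 (31.2%), with a median change over all tested genes of 0.05. In 5872 genes (31.0%) all 4 cultured libraries lay above all 4 directly isolated ones, and in 5152 (27.2%) all lay below. A change of more than 2-fold in addition to the test was reached by 3695 genes in the upward direction and by 2506 in the downward direction. Of the genes called, 52.6% were higher in culture, and this share depended on the scaling: with library size alone 8375 genes were higher and 4285 lower (66.2% higher), and the median of all genes moved to 0.28. The directly isolated libraries were more concentrated on few transcripts, with 22.3 to 23.1% of counts in their 100 most abundant genes against 15.5 to 16.5% in cultured cells. The 100 genes that lost most fell from 206298 to 46383 CPM in sum, while the 100 that gained most went from 46071 to 106397 CPM.

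**Figure D1:**
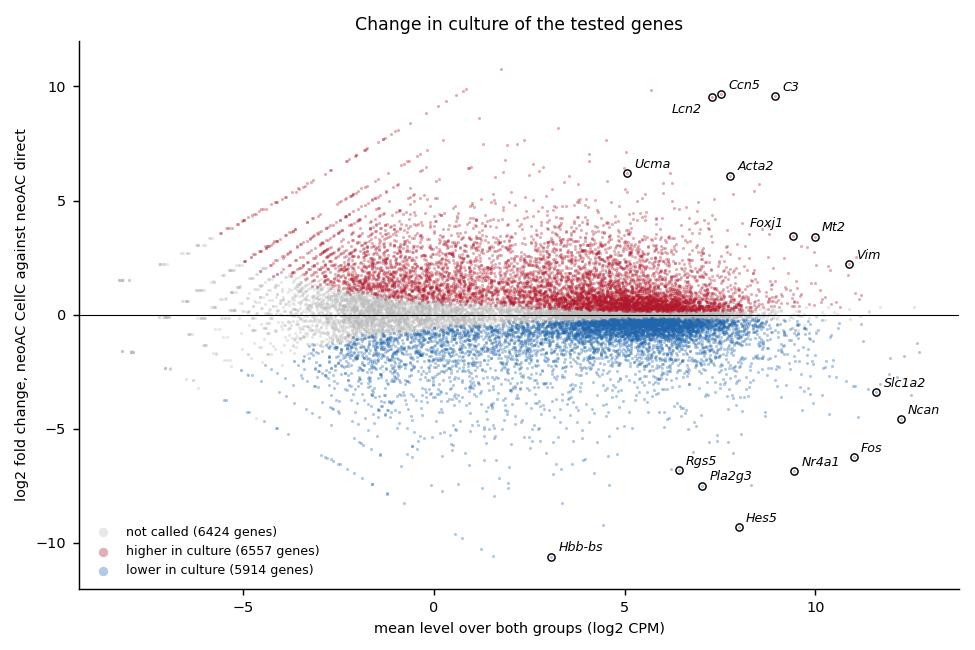
Each point is a tested gene, with its mean log2 CPM over both groups on the x axis and its log2 ratio of cultured over directly isolated cells on the y axis. Coloured points are the 6557 genes that were higher and the 5914 that were lower in culture, 6424 grey points passed in neither direction, and 46 tested genes without a count in the 8 libraries are not drawn. Among the labelled genes Ccn5, C3 and Lcn2 lie near the top and Hbb-bs and Hes5 near the bottom, while Vim, Ncan and Slc1a2 lie at the abundant end.

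Counts on genes ran from 28770124 to 33821050 per library in cultured cells and from 30502488 to 37997368 in directly isolated cells, so that 3 counts corresponded to 0.0786 to 0.102 CPM. A pair of directly isolated libraries stood apart. Mitochondrially encoded RNA took 1.94% of counts in directly isolated replicate 4, against 0.990 to 1.04% in the other 3 and 1.79 to 2.38% in the cultured libraries. Directly isolated replicate 2 was the highest of the 8 libraries for the summed markers of endothelial cells, mural cells, microglia and red blood cells, and these values stand beside the genes they touch.

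The 10 largest rises were ranked only among called genes whose groups did not overlap and that were measured in every library. They came from genes of different roles, of which C3, Lcn2, Ccn5 and Acta2 are given in full. C3, the central component of complement (chr17:57203970-57228136, GRCm38), was at 1.17, 1.30, 1.43 and 1.26 CPM in the 4 directly isolated libraries and at 1086, 1277, 762 and 816 CPM in the 4 cultured ones. The directly isolated libraries were all low and the 4 cultured libraries all high. The change was 9.57 (SE 0.40, edgeR adjusted p = 3.84e-15). Lcn2, which encodes the iron-siderophore binding protein lipocalin 2, went from 0.390, 0.443, 0.442 and 0.366 CPM to 531, 302, 199 and 214 CPM, a change of 9.55 (SE 1.04, edgeR adjusted p = 1.08e-07). Ccn5, a secreted matricellular protein, was at 0.488, 0.498, 0.544 and 0.299 CPM in directly isolated cells and at 277, 398, 363 and 443 CPM in cultured cells, with a change of 9.64. Acta2, the smooth muscle actin of contractile cells, rose from 6.18, 8.56, 5.44 and 4.86 CPM to 484, 372, 252 and 607 CPM (6.09, SE 0.28). A lack of overlap was required of these 4 genes, and the gap between their groups was wide.

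The other rises among the 10 largest were those of Ltbp2 (7.10), which binds microfibrils and whose exons overlap a transcript on the opposite strand, Crabp1 (7.02), a retinoic acid binding protein, the interferon-induced Ifit1 (6.73), the metalloreductase Steap4 (6.43), Klhdc8a (6.20) and the cartilage matrix gene Ucma (6.19). Genes with at most 3 counts in every directly isolated library were rarely abundant in culture, and none of the 833 tested genes of that kind exceeded a mean of 10 CPM. The most abundant of them were Angpt4, an angiopoietin at least 78.7-fold higher in culture, Ces1g, a carboxylesterase at least 70.6-fold higher, the near-identical apolipoprotein L genes Apol9a (at least 51.2-fold) and Apol9b (at least 47.8-fold), Cyp24a1 (at least 40.8-fold) and Ifit1bl2 (at least 39.2-fold). Cyp24a1, the enzyme that degrades active vitamin D, was carried by 1 library, at 13.3, 0.708, 0.665 and 0.887 CPM in the 4 cultured ones, and without that library its bound was 7.88-fold. These bounds set the mean of the cultured group against 3 counts in a directly isolated library.

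The largest falls, also ranked only among called genes without overlap, were headed by a Notch target and included immediate early genes. Hes5, the repressor that Notch switches on in radial glia and young astrocytes (chr4:154960923-154962371), stood at 569, 550.4, 612 and 308 CPM in directly isolated cells and at 0.874, 0.891, 0.721 and 0.721 CPM in cultured cells. The cultured libraries were all low and close to each other, and the change was −9.31 (SE 0.39, edgeR adjusted p = 3.76e-15). Its exons overlap a predicted transcript on the opposite strand, and counting by strand is not stated. Fosb, an AP-1 subunit, dropped from 795, 584, 546 and 588 CPM to 3.62, 4.27, 3.30 and 3.13 CPM (−7.45), and Nr4a1, an orphan nuclear receptor of the immediate early class, from 1758, 1400.2, 1348 and 1018 CPM to 13.2, 12.5, 10.01 and 12.03 CPM (−6.86, SE 0.21, edgeR adjusted p = 1.77e-18). The remaining 7 of the 10 largest falls were those of the phospholipase Pla2g3 (−7.49, exons overlapped by Inpp5j), the pericyte genes Rgs5 (−6.82) and Abcc9 (−6.54), the lipoprotein lipase inhibitor Angptl4 (−6.76), the ammonium channel Rhcg (−6.75), the endothelial phosphatase Ptprb (−6.36) and the calcium-activated chloride channel Ano1 (−6.32).

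Vascular and blood genes led among the genes that had at most 3 counts in every cultured library. Hbb-bs, an adult beta-globin, was at least 199-fold lower in culture and was the only one of 479 such genes above a mean of 10 CPM in directly isolated cells, at 12.2, 38.7, 5.23 and 11.4 CPM in the 4 libraries. Kcnj8, the pericyte potassium channel subunit, was at least 89.9-fold lower, the capillary carbonic anhydrase Car4 at least 70.9-fold, the alpha-globin Hba-a1 at least 68.96-fold, and Ushbp1, an endothelial gene, and Gimap6 at least 58.6-fold and at least 56.1-fold. These bounds rested in part on directly isolated replicate 2. Without it Hbb-bs had a mean of 9.59 CPM and was at least 113-fold lower, and the bounds were 62.8-fold for Kcnj8, 43.0-fold for Car4, 37.95-fold for Hba-a1, 34.4-fold for Ushbp1 and 35.1-fold for Gimap6. Rgs5, which stayed above the floor, was at 127, 279, 91.2 and 182 CPM in the 4 directly isolated libraries against 2.25, 1.18, 1.05 and 1.58 CPM in the cultured ones. Without replicate 2 the remaining directly isolated libraries still exceeded every cultured library in Rgs5.

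**Figure D2:**
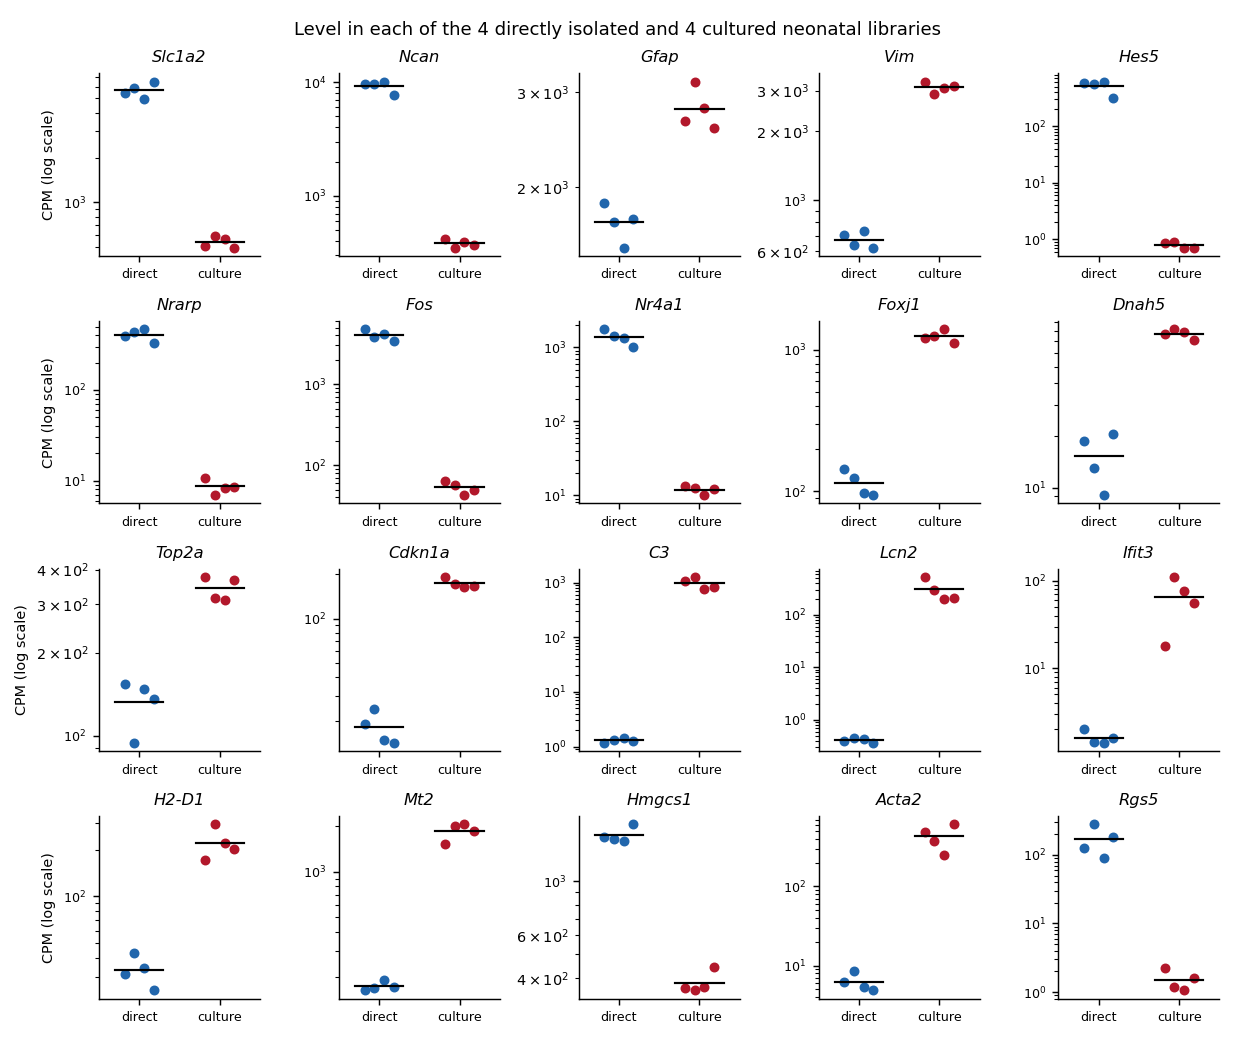
Each panel shows 1 gene with its level in CPM (log axis) in the 4 directly isolated and the 4 cultured neonatal libraries, and a line at each group mean. The 20 genes were chosen for display, and the groups do not overlap in any panel. C3 and Lcn2 lie near the bottom of the axis in every directly isolated library and Hes5 in every cultured one.

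Measured by the amount of RNA gained, the leading genes were not those with the largest ratios. The 8 genes with the largest gain in CPM were Igfbp5 (645 to 3685 CPM) and Igfbp2 (872 to 2868 CPM), which bind insulin-like growth factors, the intermediate filament Vim (673 to 3103 CPM), the metallothioneins Mt1 (263 to 1742 CPM) and Mt2 (174 to 1859.7 CPM), the ferritin heavy chain Fth1 (479 to 2125 CPM), the peroxidase Prdx6 (550.5 to 2131 CPM) and the matricellular Sparc (1659 to 3032 CPM). The 8 genes that lost most were Ptprz1, a receptor phosphatase and proteoglycan (10792 to 939 CPM), the lectican Ncan (9314 to 385.7 CPM), Apoe, the main lipoprotein of the brain (10302 to 3287 CPM), Sparcl1, a synapse-forming factor also called hevin (7836 to 1179 CPM), the carboxypeptidase Cpe (7911 to 2282 CPM), the glutamate transporter Slc1a3 (6722 to 1110.4 CPM), the desaturase Scd2 (9121 to 3798 CPM) and Fabp7, the fatty acid binding protein of radial glia (5899 to 719.6 CPM). These 16 changes all passed the test, from 0.87 for Sparc to 3.42 for Mt2 among the gains and from −1.26 for Scd2 to −4.59 for Ncan among the losses.

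The genes that carry out astrocyte functions fell as a class. Of the 56 astrocyte genes, 46 fell, 4 rose and 6 passed in neither direction, with a median change of −1.74 against 0.05 over all genes. In glutamate handling, 7 of 8 genes fell. Slc1a2, the main glutamate transporter of the forebrain, was at 5455, 5838, 4934 and 6488 CPM in directly isolated cells and 507, 597, 565 and 497 CPM in cultured cells, a change of −3.39 (SE 0.19, edgeR adjusted p = 4.46e-14). The groups were far apart, and each was narrow. Glutamine synthetase (Glul, −3.13), the GABA transporter Slc6a11 (−4.49) and the neutral amino acid exchanger Slc7a10 (−5.28) fell as well, and the glutamine transporter Slc38a3 rose by 0.41.

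Channel and junction genes were lowered in 9 of 10 cases, but by less, with a median of −1.01. The connexins Gjb6 (−3.82) and Gja1 (−1.15) and the bicarbonate transporter Slc4a4 (−2.05) fell, as did the water channel Aqp4 (−0.88). Kcnj10, the potassium channel Kir4.1, rose by 0.76. Among the cytoskeletal, calcium-binding and metabolic markers, 12 of 16 fell. Gfap, the intermediate filament by which astrocytes are most often stained, was at 1866, 1727, 1546 and 1749 CPM and 2654, 3143, 2806 and 2576 CPM, a rise of 0.70 (SE 0.14, edgeR adjusted p = 9.37e-05), so that the groups did not overlap although the change was under 2-fold. S100b, at 78.9 ± 11.1 CPM and 88.5 ± 7.72 CPM, gave a change of 0.17 and did not pass (edgeR adjusted p = 0.496). Aldh1l1 (−2.02), Aldoc (−2.33), Cbs (−3.65) and the phagocytic bridge Mfge8 (−4.35) fell.

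Receptors fell in 8 of 11 cases, among them the metabotropic glutamate receptors Grm3 (−5.24) and Grm5 (−3.54), the FGF receptor Fgfr3 (−2.39) and the endothelin receptor Ednrb (−2.12). Astrocyte transcription factors fell in 10 of 11 cases (median −1.25), and apart from Hes5 none fell further than Emx2 (−2.05). Sox9 (−1.25), Nfia (−0.69), Nfib (−0.50) and Sox2 (−1.24) fell, and Id4 was at 0.05 without passing. The markers most used to identify astrocytes thus moved in different directions, with Slc1a2, Aldh1l1 and Aqp4 lower, Gfap, Vim and Kcnj10 higher, and S100b not distinguishable at this spread.

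Genes of the Notch pathway were lower in culture at the level of receptors, ligands and targets. Of 15 genes 11 fell and 2 rose, with a median of −2.08 and summed levels of 2283 to 3372 CPM in directly isolated and 834 to 923 CPM in cultured cells. Directly isolated replicate 4 had the lowest of the direct sums, and the 3 others lay at 3203 to 3372 CPM. Nrarp, the feedback inhibitor that Notch itself induces, was at 397, 438, 469 and 332 CPM and 10.8, 6.92, 8.23 and 8.59 CPM (−5.57, SE 0.23, edgeR adjusted p = 1.23e-15). The targets Heyl (−6.20), Hes1 (−2.76) and Hey2 (−2.51) fell and Hey1 did not pass (0.11). Of the receptors, Notch3 (−3.57) and Notch1 (−1.45) fell and Notch2 did not pass (−0.12; 0.12 with library size alone). The ligands Dll4 (−4.15), Jag1 (−2.08) and Dll1 (−0.89) fell, while Dll3 (1.09) and Jag2 (0.72) rose. Notch3, Heyl and Dll4 are also expressed by vascular cells, of whose markers all 9 mural and 7 of 10 endothelial ones fell, and their part in these values was not tested.

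Immediate early genes, which cells switch on within minutes of a stimulus, were high in directly isolated cells. Their 27 genes summed to 12175 to 17332 CPM in the directly isolated libraries and 893 to 1295 CPM in the cultured ones, and 24 of them fell with a median of −3.43. Fos was at 4767, 3837, 4185 and 3428 CPM and 64.6, 57.5, 42.6 and 49.4 CPM (−6.24, SE 0.39, edgeR adjusted p = 4.26e-12). All 4 directly isolated libraries were far above all 4 cultured ones. Junb (−4.44), Btg2 (−4.28), the STAT inhibitor Socs3 (−4.23), Klf4 (−4.70), Egr1 (−3.52) and Ier2 (−3.52) fell too. The exceptions were Fosl1 (3.33) and Ier5 (0.74), which rose, and Npas4, which is mainly neuronal and did not pass (−0.19; 0.04 with library size alone). Heat shock genes were divided. The inducible Hspa1a (−1.64) and its near-identical copy Hspa1b (−1.91) fell with the co-chaperone Dnajb1 (−0.62), while Hsph1 (2.25), Hsp90aa1 (2.17), Hspb1 (1.53) and Hspa8 (0.56) rose.

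Motile cilia are the beating projections of ependymal cells, built on an axoneme of microtubules with dynein arms. Their genes rose in cultured neonatal cells almost without exception. Of 76 motile cilium genes 74 rose and 1 fell, with a median of 1.92 and sums of 1557 to 1975 CPM in directly isolated and 5724 to 6896 CPM in cultured libraries. Foxj1, the transcription factor that drives the motile cilium program, was at 144, 124, 97.6 and 94.2 CPM and 1206, 1254, 1398 and 1108 CPM (3.44, SE 0.16, edgeR adjusted p = 1.93e-15). Gmnc (4.58) and Mcidas (3.42), which commit a cell to the multiciliated fate, Myb (3.05), Deup1 (2.85), which builds the platform for centriole amplification, and Trp73 (1.02) also rose. Of the RFX factors Rfx2 rose (1.69), Rfx4, which is expressed in astrocytes at large, fell (−0.88) and Rfx3 did not pass (0.18).

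All 15 axonemal dyneins rose, with a median of 2.12. Dnah5, a heavy chain of the outer arm, went from 18.7, 12.9, 9.07 and 20.4 CPM to 76.8, 82.1, 78.8 and 71.1 CPM (2.34, SE 0.19, edgeR adjusted p = 1.2e-10), and its groups did not overlap. All 14 genes that assemble or dock dynein arms rose (median 2.23), with Dnaaf1 at 3.37 and Spag1 at 0.67 as the ends of the range. All 15 genes of the central pair, radial spokes and microtubule inner proteins rose (median 2.16), among them the spoke head gene Rsph1 (19.2 to 228 CPM, 3.57), Hydin (2.04) and Tekt1 (2.71). Intraflagellar transport genes, which immotile primary cilia also use, rose in all 21 cases but by less (median 1.13), from 0.43 for Ift27 to 2.11 for Ttc30b. The background shares for the same call were 34.6% higher and 31.2% lower.

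Ependymal markers moved with this result. All 11 rose, their sums were 166 to 250.3 CPM in directly isolated and 1658 to 2110.5 CPM in cultured libraries, and none was at 0 in any of the 8 libraries. Pifo (3.52), Ccdc153 (3.02), Rarres2 (2.31) and Mia (1.39) were among them, and Foxj1 belongs to both lists. The part of ependymal cells in the rise of cilium genes was not tested.

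Promoters of motile cilium genes often hold an X-box, the element bound by RFX factors. Its core GTTGCC was searched on both strands from 250 bases before to 50 after each RefSeq start. It was found in the window of 17 of the 35 axoneme, dynein and assembly genes with a promoter in the table (48.6%), in 8 of 17 intraflagellar transport genes (47.1%) and in 13.8% of 25748 genes at large. These letters are a description of the window and not a mapped site. The windows of a tektin, a dynein regulatory complex gene, a central pair gene and a transport gene that rose by 2.71, 2.32, 2.04 and 1.35 are shown with each match, on either strand, in capitals, from RefSeq on GRCm38.p6, 5′ to 3′ on the gene's strand, at chr11:72361833-72362132 (minus strand), chr5:30281143-30281442 (plus strand), chr8:110266727-110267026 (plus strand) and chr5:31291065-31291364 (minus strand).
Tekt1: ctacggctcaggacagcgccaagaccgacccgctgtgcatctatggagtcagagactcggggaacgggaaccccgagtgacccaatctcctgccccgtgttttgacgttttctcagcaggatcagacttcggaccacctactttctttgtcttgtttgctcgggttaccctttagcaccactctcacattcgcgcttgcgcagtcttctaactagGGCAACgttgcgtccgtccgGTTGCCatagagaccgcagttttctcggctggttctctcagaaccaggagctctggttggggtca
Drc1: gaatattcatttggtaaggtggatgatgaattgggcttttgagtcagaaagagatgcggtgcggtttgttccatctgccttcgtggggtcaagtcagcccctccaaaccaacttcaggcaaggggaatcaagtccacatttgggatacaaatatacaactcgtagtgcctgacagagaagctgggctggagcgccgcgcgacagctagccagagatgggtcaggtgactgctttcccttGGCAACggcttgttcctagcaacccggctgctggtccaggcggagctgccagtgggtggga
Hydin: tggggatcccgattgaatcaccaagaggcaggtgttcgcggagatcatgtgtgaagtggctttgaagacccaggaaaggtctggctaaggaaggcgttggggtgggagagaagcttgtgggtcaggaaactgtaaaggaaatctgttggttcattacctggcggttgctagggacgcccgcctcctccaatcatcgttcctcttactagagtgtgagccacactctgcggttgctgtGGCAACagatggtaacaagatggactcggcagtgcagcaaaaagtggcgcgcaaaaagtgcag
Ift172: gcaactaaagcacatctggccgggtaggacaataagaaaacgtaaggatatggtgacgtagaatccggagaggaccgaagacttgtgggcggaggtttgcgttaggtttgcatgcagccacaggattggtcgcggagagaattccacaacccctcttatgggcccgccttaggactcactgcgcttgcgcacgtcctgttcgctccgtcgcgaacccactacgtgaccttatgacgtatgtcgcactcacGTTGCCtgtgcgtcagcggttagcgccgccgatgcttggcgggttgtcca
In Drc1 and Hydin the match begins close to the start site, at −11 and −13.

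Cell division genes were higher in culture. All 23 mitosis genes rose, with a median of 1.2, and 15 of 21 DNA replication genes rose and none fell (median 0.64). Top2a, the topoisomerase of dividing cells, was at 153, 94.1, 147 and 136 CPM and 376, 316, 309 and 366 CPM (1.37, SE 0.12, edgeR adjusted p = 2.88e-10). Aurka (1.69), Cdc20 (1.63) and Kif23 (1.56) were the mitosis genes with the largest rises, and Mki67, the antigen used to count cycling cells, rose by 0.70. Ccne2 (2.05) and Mcm10 (1.24) rose among replication genes, while Mcm3, Mcm4, Pcna, Gins1, Rfc3 and Pola2 did not pass, with changes from −0.20 to 0.19.

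Of the 9 D cyclins and inhibitors 5 rose and 2 fell. Cdkn1a, the p21 inhibitor induced by p53, was at 19.2, 24.4, 14.9 and 14.3 CPM in directly isolated cells and at 193, 172, 165 and 168 CPM in cultured cells (3.26, SE 0.21, edgeR adjusted p = 4.15e-12). Cdkn2a (2.60) and Cdkn2b (2.41), which block the D cyclin kinases, rose, Cdkn1b fell (−0.74), and Cdkn1c did not pass (0.26). The D cyclins moved apart. Ccnd1 rose from 115, 129, 129 and 114 CPM to 876, 322, 271 and 424 CPM (1.96). Ccnd2, the D cyclin of neural progenitors, was at 723, 595, 859.9 and 652 CPM and 637, 379, 329 and 414 CPM (−0.69, edgeR adjusted p = 0.00106). The Ccnd2 groups overlapped, and cultured replicate 1 was the highest of the 4 cultured libraries for Ccnd1.

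Genes of mitosis share the cell cycle genes homology region, a promoter element through which the DREAM and MuvB complexes act. Its letters TTTGAA, searched on both strands, were found in 13 of the 19 mitosis genes with a window (68.4%) and in 19.9% of all windows. Windows of a kinase, a topoisomerase and an activator of the anaphase-promoting complex that rose by 1.37, 1.37 and 1.63 are shown with the match in capitals, at chr10:69352863-69353162 (minus strand), chr11:99024140-99024439 (minus strand) and chr4:118437294-118437593 (minus strand) of the same build.
Cdk1: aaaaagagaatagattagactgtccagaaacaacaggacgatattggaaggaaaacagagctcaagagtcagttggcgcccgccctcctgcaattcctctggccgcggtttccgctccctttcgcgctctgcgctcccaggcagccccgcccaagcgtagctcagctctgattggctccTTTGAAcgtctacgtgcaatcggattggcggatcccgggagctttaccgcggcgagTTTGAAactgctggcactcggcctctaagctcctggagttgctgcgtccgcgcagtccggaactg
Top2a: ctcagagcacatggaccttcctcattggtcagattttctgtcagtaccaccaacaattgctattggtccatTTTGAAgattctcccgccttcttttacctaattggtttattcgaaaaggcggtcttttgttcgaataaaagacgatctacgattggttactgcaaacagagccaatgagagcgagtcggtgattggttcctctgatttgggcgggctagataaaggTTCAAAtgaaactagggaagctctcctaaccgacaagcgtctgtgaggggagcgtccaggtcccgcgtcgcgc
Cdc20: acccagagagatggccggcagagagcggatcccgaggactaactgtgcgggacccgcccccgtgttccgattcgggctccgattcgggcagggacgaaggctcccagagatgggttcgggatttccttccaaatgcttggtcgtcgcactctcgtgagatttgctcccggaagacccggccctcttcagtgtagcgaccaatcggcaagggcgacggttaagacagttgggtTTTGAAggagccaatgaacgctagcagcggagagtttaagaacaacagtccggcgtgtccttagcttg
The match in Cdc20 begins at −18 from the start site.

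Genes that astrocytes raise after injury or inflammation were mostly higher in culture. Of the pan-reactive genes 10 of 12 rose and none fell (median 1.82), of the neuroinflammatory A1 genes 10 of 12 rose (median 2.66), and of the ischemia-type A2 genes 7 of 11 rose and 4 fell (median 0.83). Besides C3 and Lcn2, ceruloplasmin (Cp, 4.06), the chemokine Cxcl10 (3.63), the oncostatin receptor Osmr (1.74) and the hyaluronan receptor Cd44 (1.31) rose. Serpina3n, a marker of reactive astrocytes, was at 93.9, 87.98, 82.2 and 86.8 CPM and 137, 152, 135 and 144 CPM, and its change of 0.69 did not pass (edgeR adjusted p = 0.139). It did pass, with a change of 0.67, when the 8 neonatal libraries were fitted alone (edgeR adjusted p = 1.01e-05). The A1 genes Serping1 (2.58), Fbln5 (4.55) and Iigp1 (5.82) and the A2 genes Cd109 (4.94), Clcf1 (4.26) and S100a10 (3.52) rose, while Srgn (−2.10), Amigo2 (−0.74), Ptx3 (−1.78), Sphk1 (−1.56), Ptgs2 (−1.26) and Cd14 (−1.99) fell. Ptgs2 is itself inducible within an hour and Srgn and Cd14 are expressed by microglia, of whose markers 12 of 15 fell, and the part of microglia in these values was not tested.

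Interferon-stimulated genes rose in 17 of 18 cases and none fell, with a median of 3.90. Ifit3, an antiviral effector, was at 1.98, 1.44, 1.39 and 1.56 CPM and 17.8, 111, 75.9 and 55.6 CPM (5.35, SE 0.61, edgeR adjusted p = 1.38e-07). Cultured replicate 1 was the lowest of the cultured libraries here, and for the interferon-stimulated genes together it stood at 385 CPM against 717 to 1251 CPM in the other 3. Oasl2 (5.12), Bst2 (4.45), Isg15 (3.95) and the transcription factor Irf7 (3.86) rose, and Mx2 did not pass (0.53). All 11 genes of antigen presentation by MHC class I rose, with a median of 1.88. H2-D1 was at 31.3, 42.8, 34.5 and 24.5 CPM and 173, 293, 223 and 203 CPM (2.74), the light chain B2m changed by 1.80, the immunoproteasome subunit Psmb9 by 4.24 and Nlrc5, the transactivator of this gene set, by 3.82. H2-D1 and H2-K1 are close paralogs, so reads may have been divided between them.

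Metal and oxidative stress genes rose. Mt2, a metallothionein that binds zinc and copper, was at 164, 169, 191 and 172 CPM and 1528, 2000.4, 2058 and 1853 CPM (3.42, SE 0.13, edgeR adjusted p = 3.66e-17). Mt1 (2.72) and the brain form Mt3 (1.38) rose as well, while the zinc exporter Slc30a1, a classical metal-responsive gene, did not pass (−0.11; 0.11 with library size alone) and the importer Slc39a10 fell (−0.70). Of 13 targets of NRF2, the factor that answers electrophiles and oxidants, 11 rose, among them Osgin1 (4.38), sulfiredoxin (Srxn1, 3.57), heme oxygenase (Hmox1, 2.67) and thioredoxin reductase (Txnrd1, 2.48). Slc7a11, the cystine importer that both NRF2 and ATF4 control, fell (−2.42), and Nqo1 did not pass (0.41).

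Metallothionein promoters carry metal response elements, to which the zinc sensor MTF1 binds. A single spelling of their core, TGCGCNC, with N any base and read on both strands, was searched, and other spellings were not. It was found in the windows of 3 of the 5 genes listed (Mt1, Mt2 and Slc30a1, 60%) and in 17.3% of all windows. The windows of the neighbouring genes Mt2 and Mt1, at chr8:94172368-94172667 (plus strand) and chr8:94178839-94179138 (plus strand), are shown with every match to that spelling in capitals.
Mt2: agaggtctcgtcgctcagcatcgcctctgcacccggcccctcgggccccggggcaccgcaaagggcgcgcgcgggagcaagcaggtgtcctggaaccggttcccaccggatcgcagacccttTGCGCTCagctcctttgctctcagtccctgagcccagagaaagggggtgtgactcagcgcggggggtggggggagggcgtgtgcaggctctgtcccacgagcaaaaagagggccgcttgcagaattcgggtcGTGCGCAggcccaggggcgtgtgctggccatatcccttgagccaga
Mt1: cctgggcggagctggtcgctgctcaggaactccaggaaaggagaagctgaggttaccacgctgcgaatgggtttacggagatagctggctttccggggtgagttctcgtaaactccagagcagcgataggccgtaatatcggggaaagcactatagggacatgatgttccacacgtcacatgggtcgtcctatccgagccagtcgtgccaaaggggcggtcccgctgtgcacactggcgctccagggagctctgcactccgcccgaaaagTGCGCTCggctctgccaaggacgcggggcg

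Genes of cholesterol synthesis were lower in culture. Of the 17 enzymes off the sex chromosomes 16 fell and none rose, with a median of −1.90. Hmgcs1, which makes the mevalonate precursor HMG-CoA, was at 1524, 1493, 1464 and 1713 CPM and 364, 356, 368 and 443 CPM (−2.02, SE 0.14, edgeR adjusted p = 3.38e-12). Fdps (−2.95), Mvd (−2.76), Lss (−2.72) and the late enzyme Tm7sf2 (−3.85) fell, Sqle fell least among those called (−0.78), and Hsd17b7 did not pass (−0.14; 0.09 with library size alone). The SREBP2 gene Srebf2 (−0.79), the retention factor Insig1 (−2.06), and the sterol carrier Stard4 (−1.54) fell. Of the sterol carriers and exporters, Apoe (−1.65), Abcg4 (−1.26), Lcat (−0.91) and Abcg1 (−0.78) fell, and lipoprotein lipase (Lpl) rose by 1.88. Fatty acid synthesis followed the same direction, with 9 of 10 genes lower, including Fasn (−1.82) and the desaturases Fads2 (−1.75) and Scd2 (−1.26). Fatty acid oxidation genes fell in 8 of 13 cases, with the carrier Fabp5 at −3.62 and the carnitine transferase Cpt1a at −0.87. The sterol element TCACNCCAC lay in the window of 1 of 12 enzyme genes, Hmgcs1, and in 1.45% of all windows.

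Matrix genes were divided by class. The proteoglycans and tenascins of the perineuronal and perisynaptic matrix fell, with 9 of 13 genes lower and a median of −3.13. Ncan was at 9730.5, 9671, 10139 and 7716 CPM and 422, 352, 396 and 372 CPM (−4.59, SE 0.18, edgeR adjusted p = 1.19e-16), and Acan (−4.43), Cspg5 (−3.89), Vcan (−3.61), Hapln1 (−3.28), Bcan (−3.13) and Tnc (−2.74) fell with it. The 4 genes of that list that rose were Spp1, the integrin ligand osteopontin (2.74), fibronectin (Fn1, 1.48), periostin (Postn, 1.03) and Tnr (0.93). Collagens rose in 10 of 12 cases, led by Col5a2 (3.00) and Col11a1 (2.98). Fibroblast and meningeal markers, which share Col1a1, Col1a2 and Col3a1 with this list, rose in 5 and fell in 2 of 10 cases, with sums of 441 to 652 CPM and 608 to 964 CPM, and their part in the collagen values was not tested. Among integrins and laminins, the laminin-binding Itga3 rose by 4.61 and Lama4, an endothelial laminin chain, fell (−3.39). Matrix proteases and inhibitors moved both ways, with Mmp3 (6.93) and Mmp2 (3.03) higher and Mmp14 (−2.39) and Adamts4 (−2.01) lower. Of the synapse-forming factors Thbs1 (3.75) and Thbs2 (1.16) rose and Thbs4 (−3.22) and Sparcl1 (−2.73) fell, and the median of that list changed sign with the scaling (−0.15, and 0.08 with library size alone).

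Contractile genes and targets of the mechanosensitive coactivator YAP rose. Of 16 actin and myosin genes 14 rose and none fell (median 1.79). Besides Acta2, the smooth muscle proteins Tagln (5.40, exons overlapped by Pcsk7) and Cnn1 (5.03) rose most, and Lmna, which encodes the nuclear lamins A and C, rose by 0.81. Mural cells also carry Acta2, Tagln and Cnn1. All 9 markers of mural cells fell, with sums of 281 to 625 CPM and 51.4 to 63.8 CPM, and their part in the contractile values was not tested. Of the YAP targets 8 of 11 rose, with Ccn2 going from 11.1, 12.2, 9.55 and 13.5 CPM to 337, 460.3, 472 and 535 CPM (5.28) and Ankrd1 changing by 4.52. Ccn1 (−1.02), a YAP target that is also an immediate early gene, and Axl (−1.17) fell.

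Genes of other developmental pathways fell too. Of the Wnt targets and inhibitors 12 of 15 fell (median −1.74), including the target genes Sp5 (−5.54), Lef1 (−4.17), Notum (−3.97) and Axin2 (−2.01), while the stem cell receptor Lgr5 rose by 1.18. Of the Hedgehog genes 6 of 7 fell, with the target Gli1 at −4.06 and the Hedgehog-binding Hhip and Ptch1 at −3.72 and −2.06. Of the ERK targets and growth factor receptors 11 of 15 fell (median −1.22), among them Etv4 (−3.38), the feedback inhibitors Spry2 (−2.81) and Spry1 (−2.25) and the receptor Egfr (−1.93). BMP and TGF-beta targets were divided, with 5 of 15 higher and 7 lower (33.3% and 46.7%, against 34.6% and 31.2% over all genes). Among them Tgfbi rose by 3.09 and the Id genes Id2 (−2.10), Id3 (−1.48) and Id1 (−0.75) fell. Glucocorticoid targets were divided too, 5 of 11 higher and 4 lower (45.5% and 36.4%), with Fkbp5 at 2.22 and Per1 at −1.05.

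Metabolic genes outside the sterol pathway showed no common direction. Glucose and lactate genes rose in 9 and fell in 7 of 24 cases (median 0.10). These 37.5% and 29.2% were near the shares of 34.6% and 31.2% over all genes. The phosphofructokinase Pfkp (2.84) and the lactate transporter Slc16a1 (1.81) were higher, and Aldoc (−2.33) and the glycogen phosphorylase Pygm (−2.06) were lower. Amino acid response genes were divided within their own pathway. The ATF4 target genes Trib3 (4.13), Eif4ebp1 (3.07), Chac1 (2.79) and asparagine synthetase (Asns, 3.19) rose, while the transcription factor Atf4 (−2.26), the serine synthesis enzyme Phgdh (−1.96) and the transporter Slc6a9 (−2.23) fell. The composite C/EBP-ATF element TTGCATCA lay in the windows of 5 of 28 of these genes (17.9%) and in 0.952% of all windows. Of the 13 mitochondrially encoded genes 5 rose and 2, mt-Co3 and mt-Atp6, fell (38.5% and 15.4%, against 34.6% and 31.2% over all genes). That count rested on directly isolated replicate 4, without which 9 rose and none fell.

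Regional genes were divided, and the median of the midbrain and hindbrain genes changed sign with the scaling (−0.12, and 0.12 with library size alone). Of the 13 forebrain genes 3 rose and 7 fell, where the shares over all genes were 34.6% and 31.2%. The pallial genes Emx2 (−2.05), Nr2f1 (−1.51) and Lhx2 (−1.49) were lower. Dlx1 (3.66), whose exons overlap its own antisense transcript, and Dlx2 (2.28), which mark ventral progenitors and their interneurons, were higher. Other ventral genes did not follow, as Nkx2-1 (−0.18) and Gsx2 (−0.08) did not pass.

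**Figure D3:**
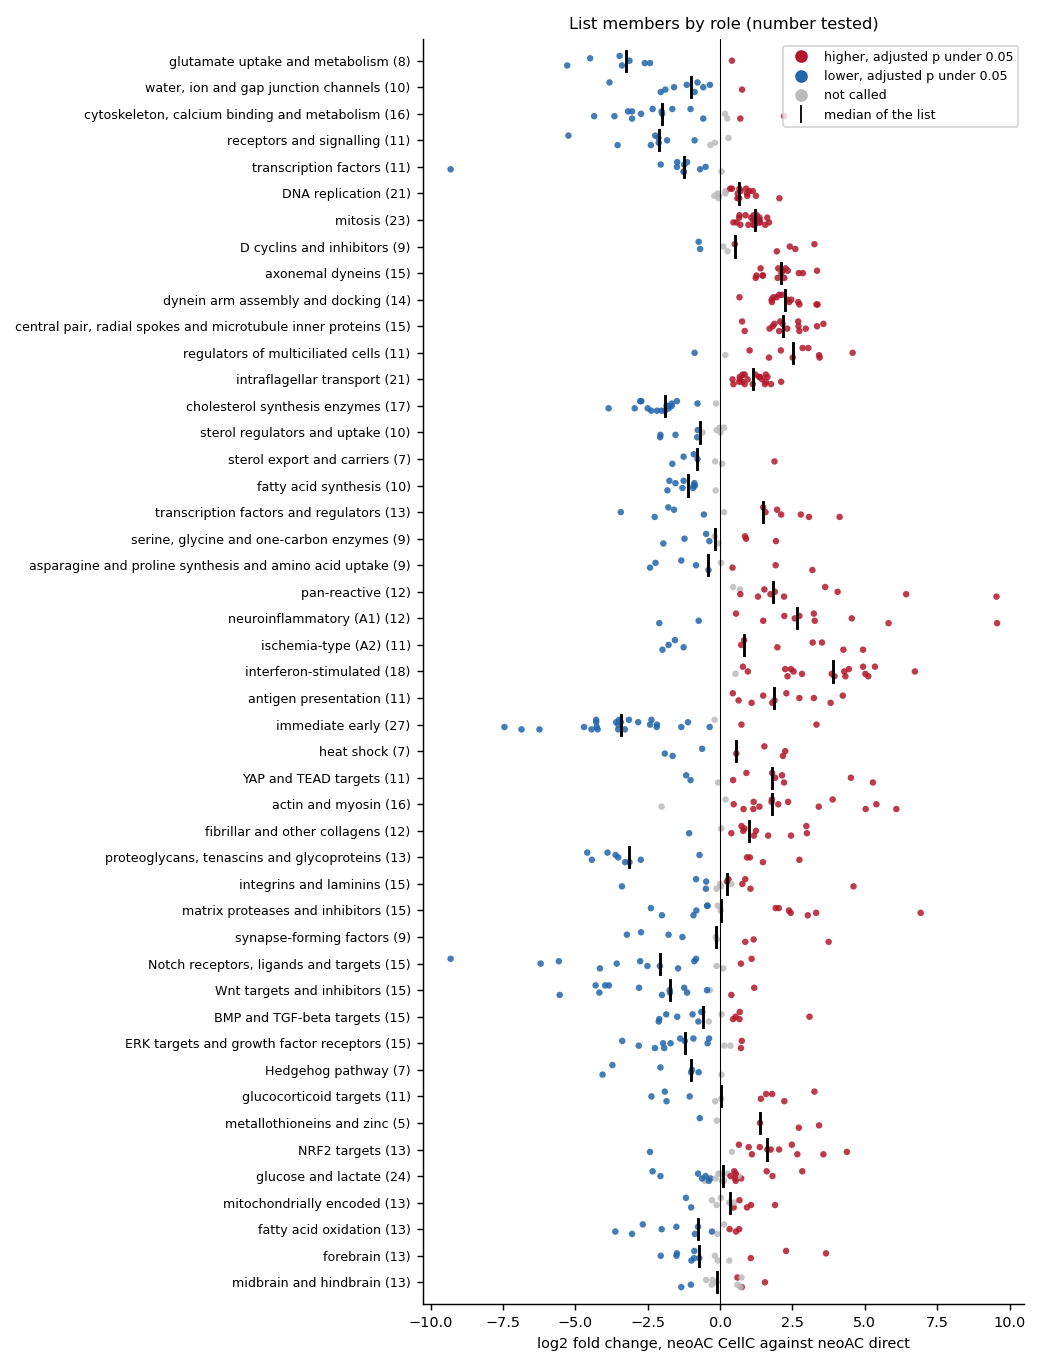
Each row is a group of genes by role, with the number tested, and each point is 1 gene at its log2 ratio of cultured over directly isolated cells; the black bar is the median of the row. Motile cilium, mitosis, interferon, antigen presentation and contractile rows lie to the right of 0, and glutamate, Notch, immediate early, cholesterol synthesis and proteoglycan rows lie to the left.

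Markers of the other cell types a sort could hold moved in both directions. Neuroblast markers rose in 8 of 10 cases, with sums of 142 to 167 CPM in directly isolated and 439 to 494 CPM in cultured libraries, and Dlx5, at 3 counts or fewer in every directly isolated library, was at least 38.6-fold higher. Sp9, a factor of migrating interneurons, changed by 5.04 and Igfbpl1 by 3.33. The part of neuroblasts in the rise of Dlx1 and Dlx2, which belong to both lists, was not tested. Neuron markers rose in 5 and fell in 3 of 13 cases (38.5% and 23.1%), where the shares over all genes were 34.6% and 31.2%. Markers of oligodendrocyte precursors rose in 6 and fell in 4 of 12 cases, with Pdgfra higher (1.91) and Olig2 lower (−0.87), and their sums overlapped at 823 to 1181 CPM and 435 to 1011 CPM. The highest cultured sum was that of replicate 1. Mature oligodendrocyte markers rose in 5 and fell in 2 of 13 cases, with Mbp at 1.86 and Aspa at −1.96. Their sums were lower in every cultured library (305 to 378 CPM and 221 to 294 CPM). Cnp made up most of these sums, with means of 297 CPM and 192 CPM. The lower sums thus mainly followed Cnp and do not show a fall of the other markers.

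Mural and red blood cell markers were lower in culture, while endothelial and microglial markers fell in most cases with sums that overlapped between the groups. All 9 mural markers fell, and Higd1b, a pericyte marker, had no count in any cultured library. Endothelial markers fell in 7 of 10 cases and the transporter Slco1a4 rose (2.62), with sums of 103 to 401 CPM and 89.8 to 139.9 CPM. All 4 globin genes tested fell, with Hba-a1 and its near-identical copy Hba-a2 at 0 in culture. Microglial markers fell in 12 of 15 cases and rose in 2, with Csf1r at −4.96, Cx3cr1 at −3.44 and Tmem119, which rose, at 1.66, and their sums were 37.7 to 134 CPM and 42.4 to 61.2 CPM. Directly isolated replicate 2 had the highest sums, 401 CPM of endothelial markers against 103 to 160 CPM in the 3 others, 625 CPM of mural markers against 281 to 413 CPM, 134 CPM of microglial markers against 37.7 to 61.7 CPM and 66.5 CPM of globins and other red cell markers against 8.46 to 20.7 CPM. Without it the mural count stayed at 9 lower, the endothelial count was 7 lower and 2 higher, the red cell count was 4 lower, and the microglial count was 9 lower and 2 higher. Fibroblast and choroid plexus markers were divided, with Ogn (4.21) and Lum (2.79) higher, Igf2 (−2.08) lower and Ttr, the most abundant choroid plexus transcript, not passing (−0.46).

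**Figure D4:**
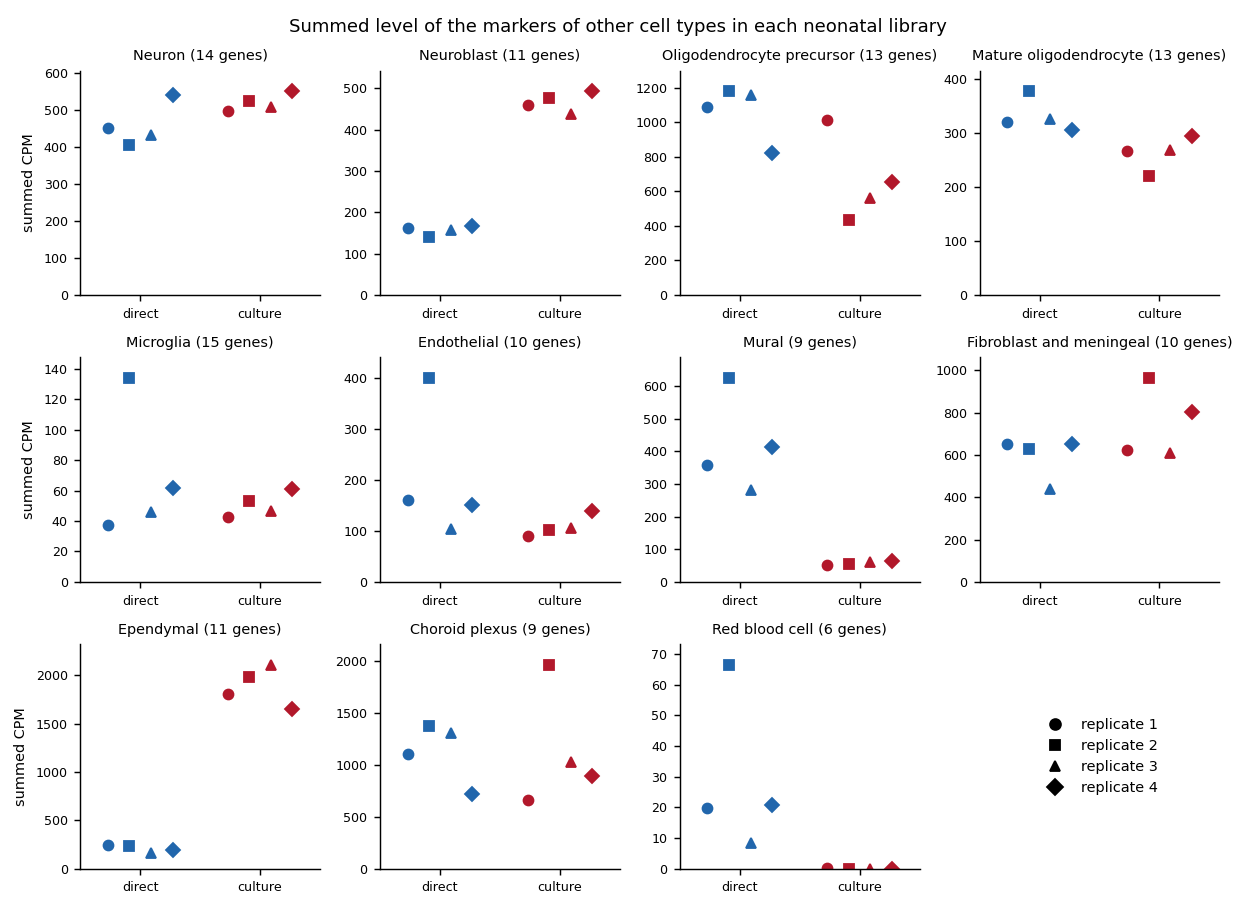
Each panel shows the summed level of the markers of a cell type in CPM in each of the 8 neonatal libraries, with a symbol for each replicate number. Ependymal and neuroblast sums are higher in every cultured library, mural sums are lower in every cultured library, and directly isolated replicate 2 is the highest for endothelial, mural, microglial and red blood cell markers.

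Whether these changes belonged to neonatal cells was tested by the interaction of culture with age, which used no library in common between the ages. In adult cells 38.7% of the 18941 genes were higher and 39.4% lower in culture. The interaction passed in 13024 of 18941 genes (68.8%), the share to set beside each count of interactions below. Of the 10112 genes called at both ages, 6575 moved in the same direction and 3537 in opposite directions, of which 2120 were higher in neonatal and lower in adult culture and 1417 the reverse.

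Motile cilium genes went in opposite directions at the 2 ages. In adult cells 64 of 76 fell and 5 rose (median −2.02), and the interaction passed in 73. Foxj1 changed by 3.44 in neonatal and −0.99 in adult cells, a difference of 4.43 (SE 0.21, edgeR adjusted p = 3.67e-15). Hydin differed by 6.05, Dnah5 by 5.31 and Gmnc by 5.28. Ependymal markers went with them, none of the 11 rising and the median being −2.98 in adult cells, with sums of 1658 to 1882 CPM in directly isolated and 283 to 402 CPM in cultured adult libraries. The part of ependymal cells in this difference was not tested.

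Mitosis genes rose at both ages and by more in adult cells, with a median of 1.2 in neonatal and 5.24 in adult cells. The interaction passed in all 23. Their cultured sums overlapped, at 1740.5 to 2400 CPM in neonatal and 1883 to 2327 CPM in adult libraries. The directly isolated sums were 691 to 1111 CPM in neonatal and 69.7 to 81.9 CPM in adult libraries. Astrocyte genes fell further in adult cells (median −3.12), and of the 50 with an interaction 38 were more positive in neonatal cells. Slc1a2 changed by −6.93 in adult cells, a difference of 3.54 (SE 0.25, edgeR adjusted p = 4.08e-12). Kcnj10 rose in neonatal and fell in adult cells (difference 2.57), and Fabp7 fell in neonatal and rose in adult cells (difference −5.27, SE 0.30). The rise of Lcn2 was large at both ages, 9.55 and 10.42, and the difference of −0.87 (SE 1.86) did not pass (edgeR adjusted p = 0.699).

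Interferon-stimulated genes rose in 17 of 18 cases in neonatal cells, and the interaction passed in 17. In adult cells 7 of 18 rose and none fell, against the adult shares of 38.7% and 39.4%, with a median of 0.72. Of the immediate early genes 13 of 27 rose and 8 fell in adult cells, against the adult shares of 38.7% and 39.4%. In neonatal cells 24 of 27 had fallen, and the interaction passed in 25. Their adult sums were 1865 to 2834 CPM in directly isolated and 1648 to 1766 CPM in cultured libraries. The directly isolated neonatal libraries stood at 12175 to 17332 CPM. Cholesterol synthesis enzymes were divided in adult cells, 9 of 17 higher and 6 lower against the adult shares of 38.7% and 39.4%. All 17 passed the interaction. Their directly isolated sums were 4958 to 5491 CPM in neonatal and 1560 to 1705 CPM in adult libraries. The cultured sums were 1278 to 1511 CPM and 1818 to 1923 CPM in the same order. Hmgcs1 fell in neonatal (−2.02) and rose in adult cells (0.86), a difference of −2.87. Mt1 rose in neonatal (2.72) and fell in adult cells (−1.07), and Ucma, among the largest rises in neonatal cells, fell in adult cells (−2.41), a difference of 8.61 (SE 0.47, edgeR adjusted p = 1.11e-13).

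**Figure D5:**
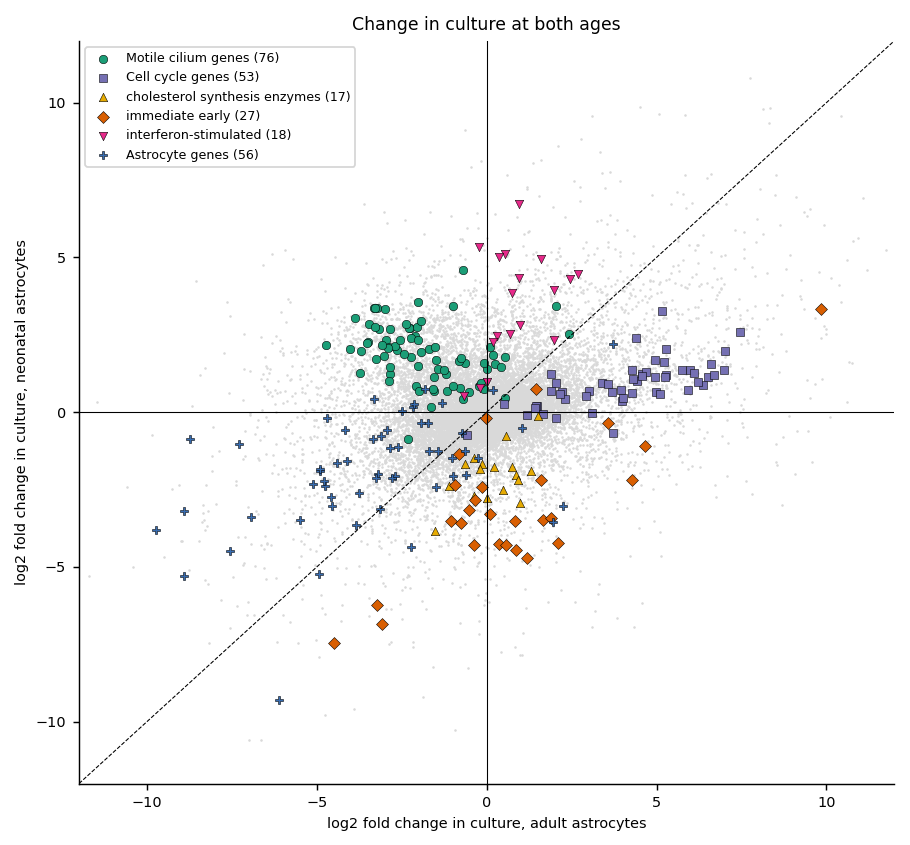
Each point is a gene, with its log2 ratio of cultured over directly isolated cells in adult astrocytes on the x axis and in neonatal astrocytes on the y axis; grey points are all tested genes, coloured points are 6 gene groups, and the dashed line marks equal change. Motile cilium genes lie mostly above 0 on the neonatal axis and below 0 on the adult axis, and cell cycle genes lie mostly above 0 on both axes and below the line of equal change.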

How the data were processed

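Poly(A) RNA of primary mouse astrocytes was sequenced, and per the study's methods the authors demultiplexed reads with bcl2fastq 2.20, aligned them to GRCm38 with STAR 2.7.3a and counted them per gene with featureCounts on a Gencode annotation. The authors deposited raw counts per gene, not normalized. Whether strand was used in counting is not given in the sources used here, so genes whose exons overlap a gene on the opposite strand are uncertain, as are near-identical copies.

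Starting from the deposited counts, all 24 libraries of the 6 groups were fitted together in R 4.3.3 with edgeR 4.0.16 (filterByExpr, TMM scaling, robust quasi-likelihood F test, two-sided, group as the only term), with limma 3.58.1 loaded. P-values were adjusted by the Benjamini-Hochberg method over all 19691 tested genes, with a threshold of 0.05. The SE was taken from the log2 ratio and its F statistic. Genes on X and Y stayed in the fit and were then left out. The age comparison was the interaction of culture with age in the same fit. No column of per-sample values was left unused (0). Replicates of the neonatal and adult astrocytes were separate isolations, and those of the stem cell derived groups in the fit were cultures of different passages. Positions and gene types came from the Gencode annotation of the same build, and promoter windows and their letters from RefSeq on GRCm38.p6.

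The comparison, its 25 gene lists (711 genes off X and Y) and the motifs were chosen with earlier results of these data known, so the lists are described by counts and medians without a test of their own. Genes were named where they belonged to a list, where they were among the 10 largest changes in each direction (protein-coding, called, groups not overlapping, at least 10 CPM in the higher group, more than 3 counts in every library), among the 6 most abundant genes at 3 counts or fewer in every library of the other group, or among the 8 largest gains and 8 largest losses in CPM. Predicted genes were not named, and some list members are not reported here. Lower bounds of fold set the mean of the higher group against 3 counts in a library of the other group. Intervals from 3 counts cover counting error only.

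The edgeR fit was tested on simulated data with the 19691 genes of neoAC CellC against neoAC direct. It recovered 48 of 50 genes lowered to 0.5-fold and 29 of 50 raised 1.5-fold. It also recovered 50 of 50 raised 2-fold and 50 of 50 raised 4-fold, with 7 false calls in all. Only 50 genes were changed at each fold, while 6557 genes were higher and 5914 lower in the real data. Recovery and false calls with that many changed genes were not tested. Alternatives were another scaling (DESeq2 1.42.0 size factors, library size alone), other filters, a DESeq2 Wald test, a fit of the neonatal libraries alone, a block for the replicate number, a 2-fold criterion, removal of X and Y genes before the fit, and each replicate left out in turn.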

Additional observations from a re-analysis of the deposited data

Results flagged for a closer look

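In 12 of 228 groups of 4 libraries a single library lay far from the other 3 by Dixon's criterion, where chance alone flags about 1 in 20 groups. Directly isolated replicate 4 accounted for 6 of them. Its mitochondrial share was 1.944% of counts against 0.990 to 1.04% in the other directly isolated libraries, and its mitochondrially encoded genes summed to 19366 CPM against 10295 to 10712 CPM. Its Notch genes summed to 2283 CPM against 3203 to 3372 CPM, its Hedgehog genes to 814 CPM against 892 to 898 CPM and its sterol regulators to 1227 CPM against 1372 to 1392 CPM, while Prdx6 stood at 599.7 CPM against 530.1 to 541 CPM. In directly isolated cells Fosb was at 795 CPM in replicate 1 against 546 to 588 CPM, Cdkn2a at 0.388 CPM in replicate 2 against 0.163 to 0.200 CPM, and fibroblast and meningeal markers summed to 441 CPM in replicate 3 against 627 to 652 CPM. In cultured cells Mt3 was at 1735 CPM in replicate 3 against 1366 to 1406 CPM, Hmgcs1 at 443 CPM in replicate 4 against 356 to 368 CPM, and heat shock genes summed to 3556 CPM in replicate 2 against 3355 to 3380 CPM.

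Of 55 leading genes, 14 changed in opposite directions in neonatal and adult culture, with an edgeR interaction past the threshold. Over all tested genes 3537 of 18941 did so, and the leading genes were a chosen set. The difference, neonatal minus adult on the log2 scale, was positive for the cilium genes Foxj1 (4.43), Gmnc (5.28), Hydin (6.05), Dnah5 (5.31), Dnah9 (4.99) and Spag17 (4.32), for Kcnj10 (2.57), for the metallothioneins Mt1 (3.79) and Mt3 (2.34), and for Ucma (8.61) and Tfcp2l1 (7.62), an epithelial transcription factor singled out after its values were seen. It was negative for Fabp7 (−5.27) and for the cholesterol synthesis genes Hmgcs1 (−2.87) and Sqle (−1.34).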

How the results depend on the processing

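Over 84 gene results, those of the ranked and leading genes, 1376 of 1388 recomputed values kept their direction and their side of the threshold, and none reversed. Other list genes were not covered by that count. Some with changes close to 0 that did not pass changed sign with library size alone, among them Notch2, Npas4, Slc30a1 and Hsd17b7. With a 2-fold criterion 3695 genes were higher, 2506 lower and 8529 passed the interaction. Requiring 10 counts or more of each library, so that fewer genes were tested, 4558 were higher, 3717 lower and 8423 passed the interaction. Library size alone gave 8375 higher and 4285 lower. Leaving out each replicate in turn gave 6301 to 6588 higher, 5605 to 5898 lower, and 12761 to 13191 with an interaction. The 2-fold criterion removed Sparc, Aqp4, Kcnj10, Gfap, Mcm5, Mki67, Sqle and Dll1. Serpina3n passed with the neonatal libraries fitted alone, and Cdkn1c passed with library size alone (0.49) and without cultured replicate 3 (0.42); the cause was not tested.

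Of the counts of list members 2310 stayed within 1.5 times the reported one and 138 did not, of which 52 came with the 2-fold criterion and 45 with the 10-count filter. Single libraries moved a few small counts. Mitochondrially encoded genes went from 5 higher and 2 lower to 9 and 0 without directly isolated replicate 4. BMP and TGF-beta targets went from 5 higher to 3 without cultured replicate 4 or directly isolated replicate 2, and endothelial markers from 1 higher to 2 without directly isolated replicate 2.

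The labels number the replicates of both groups 1 to 4. The correlations of same-numbered libraries' deviations from their group means, over 10830 genes, were 0.151, −0.124, 0.0792 and 0.259, so the numbers were not taken to pair the samples. With the replicate block 5722 genes were higher and 5638 lower, against 5695 and 5658 in the same 8 libraries without it, and the replicate block within age left 13003 genes with an interaction.

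Values under the level of 3 counts (0.0786 to 0.102 CPM) are at the limit of depth. P-values rest on the spread between replicates within all 6 groups of the fit, and not on that of the neonatal isolations alone.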
